A study of Mus musculus with 6 samples.

Results

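The genes described here encode the machinery that copies DNA in S phase: 41 genes for the licensing of origins, the replicative helicase, the polymerases, the sliding clamp and its loader, single-strand binding, Okazaki fragment processing, the supply of deoxynucleotides, chromatin assembly and the transcription factor E2f1. They were chosen by gene symbol, and all 41 were found among the 17924 genes of the deposited table. Expression was measured by RNA-seq in dermal fibroblasts from the back skin of newborn (P0) mice on a C57BL/6J background, after 14 days in medium that drives differentiation into adipocytes. Nelfb-/- cells were Nelfb fl/fl with Pdgfra-Cre, and CTL cells carried the same Cre with Nelfb fl/wt or wt/wt. Which of these control genotypes each CTL library has was not given in the sources used here. Both groups therefore carry Pdgfra-Cre, and the deletion is limited to cells that express Cre from the Pdgfra promoter or descend from such cells. Nelfb encodes a subunit of the negative elongation factor (NELF), which holds RNA polymerase II at a pause just downstream of the transcription start. Each group had 3 libraries, described as biological replicates.

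In G1, the origin recognition complex, Cdc6 and Cdt1 load the MCM2-7 helicase onto DNA, and in S phase Cdc45 and the GINS complex join it to form the active helicase. Primase and polymerase alpha start each strand, after which the polymerases delta and epsilon extend it on the PCNA clamp. Many of these genes are transcribed under E2F factors as cells enter S phase, and they are usually low in cells that have left the cell cycle, as mature adipocytes have. In bulk RNA, fewer cycling cells and less RNA per cycling cell cannot be told apart.

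The libraries held between 17.2 M and 29.4 M reads on the listed genes (M, 1e+06), so that a count of 3 reads was worth between 0.102 and 0.175 counts per 1e+06 reads (CPM). CPM is the share of a library's reads that falls on a gene, with no correction for gene length. The targeted gene averaged 19.8 ± 2.53 CPM over the CTL libraries and 4.98 ± 0.938 CPM over the Nelfb-/- libraries (SD, n = 3), a difference of -1.99 on the log2 scale (SE 0.22, limma, adjusted p = 0.0050). The adipocyte markers Adipoq, Plin1 and Fabp4 were at 286 CPM or more in every library, and the fibroblast marker Col1a1 was at 1452 CPM or more. Each gene with a mean of at least 10 reads at a common depth was tested with limma on log2 values, and p was adjusted over the 16252 genes tested by the method of Benjamini and Hochberg. A gene counts as called when its adjusted p was at most 0.05 and its change at least 2-fold. A positive fold change is higher in Nelfb-/- cells.

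All 41 replication genes were tested, and 1 of them, Slbp, was called higher in Nelfb-/- cells. Of all genes tested, 7.58% were called higher. None of the 41 was called lower (limma), where 3.64% of all genes were. By adjusted p alone the counts were the same, 1 higher (9.96%) and 0 lower (5.83%), and at an unadjusted p under 0.05 the counts were 7 higher (19.6% of all genes tested) and 0 lower (12.9%). The fitted log2 fold change was above 0 for all 41 genes (54.6% of all genes tested), with a median of 0.81 where the median of all genes tested was 0.07. It lay between 0.08 for Pola2 and 2.74 for Cdc6, and 17 genes had a fitted change of at least 2-fold. The spread between libraries of a group was wide. The SE of the log2 fold change had a median of 0.56 over the replication genes and 0.27 over all genes tested.

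The libraries of a group stood apart for nearly every gene. CTL replicate 3 was above CTL replicates 1 and 2 for all 41 genes (47.9% of all genes tested), and Nelfb-/- replicates 2 and 3 were both above Nelfb-/- replicate 1 for all 41 (44.9%). For 40 of the 41, each of CTL replicate 3 and Nelfb-/- replicates 2 and 3 exceeded each of the other 3 libraries, a pattern that 18.0% of all genes tested had. The inverse pattern was found for 0 of the 41 (15.8%). No label sets these libraries apart, and the split is known only from values such as these, so it is described here without a test. The exception was Slbp, which was higher in Nelfb-/- replicate 1 (33.5 CPM) than in CTL replicate 3 (29.4 CPM). Between the lowest of the upper 3 libraries and the highest of the lower 3, the ratio had a median of 1.80 and was at least 2 for 18 genes, with the widest gap for Mcm5 (4.65). The highest library was Nelfb-/- replicate 2 for 31 genes (18.0% of all genes tested), Nelfb-/- replicate 3 for 7 and CTL replicate 3 for Rpa3, Rrm2 and Tk1.

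**Figure D1:**
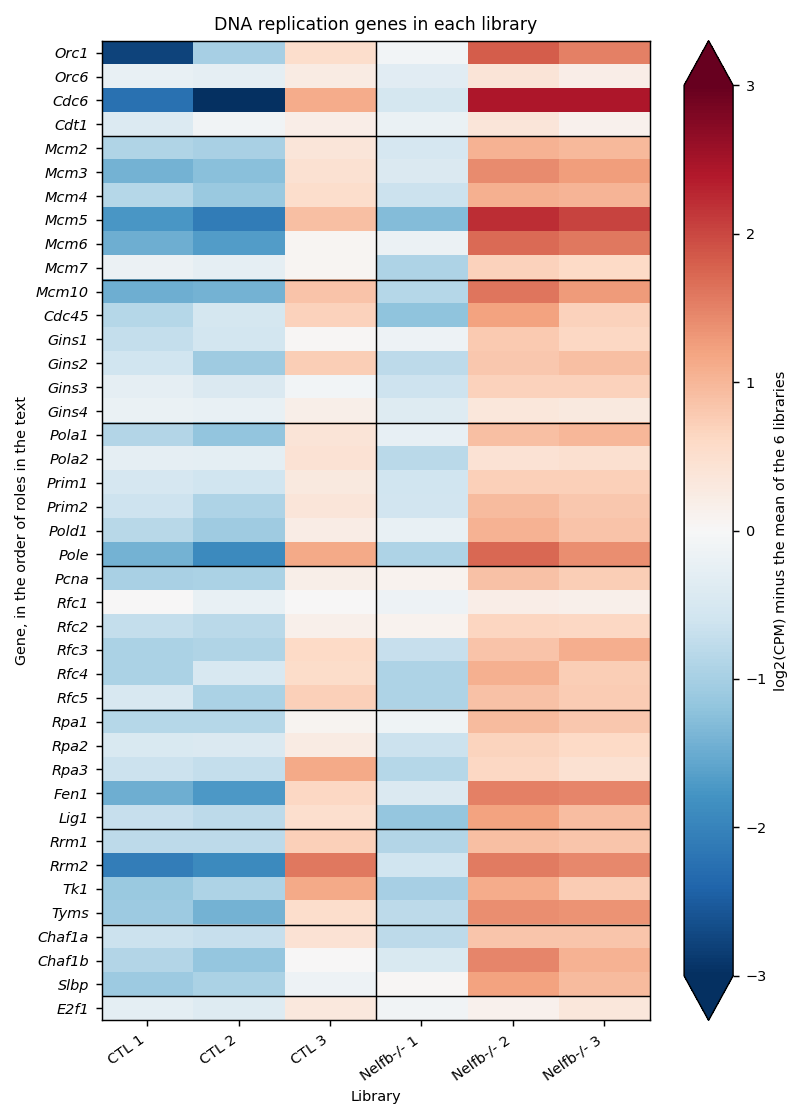
Level of each replication gene in the 6 libraries, as log2(CPM) minus that gene's mean over the libraries (colour, with values past 3 on either side shown at the end of the scale). Rows are genes separated by role, and CTL 3, Nelfb-/- 2 and Nelfb-/- 3 are above the gene's mean nearly throughout, while CTL 1, CTL 2 and Nelfb-/- 1 are mostly below it.

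Within these library sets the genotypes can be compared only as an order of libraries. The lower set holds a single Nelfb-/- library and the upper set a single CTL library. Counts of genes therefore rest on the same few libraries and are not independent observations. Nelfb-/- replicate 1 was above both CTL replicates 1 and 2 for 23 of the 41 genes (50.6% of all genes tested) and below both for 11 (37.7%). Nelfb-/- replicates 2 and 3 were both above CTL replicate 3 for 33 genes (46.6%) and both below it for 3 (40.9%). For 21 genes both held (35.3%): Orc1, Cdc6, Mcm2, Mcm3, Mcm4, Mcm5, Mcm6, Mcm10, Gins1, Pola1, Prim2, Pold1, Pole, Pcna, Rfc2, Rfc3, Rpa1, Fen1, Tyms, Chaf1b and Slbp. This list holds most of the MCM2-7 helicase and the catalytic subunits of the polymerases alpha, delta and epsilon. Every Nelfb-/- library exceeded every CTL library for Slbp alone among the 41 (22.0% of all genes tested), and the reverse order was found for 0 (16.1%).

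Leaving out single libraries moved the number of called genes. Without CTL replicate 3, 9 of the 41 were called higher (Cdc6, Mcm6, Pola1, Pcna, Rfc2, Rpa1, Fen1, Rrm2 and Slbp; 10.4% of the genes tested in that fit) and 0 lower (4.75%), and the median log2 fold change was 1.21. Without Nelfb-/- replicate 1, 4 were called higher (Mcm6, Rpa1, Chaf1b and Slbp, 7.74%) and 0 lower (4.38%), with a median of 1.27. By adjusted p alone 6 were higher in that fit (1731 of the 16131 genes tested). Without any one of the other 4 libraries, 0 were called (limma), 1 gene in each fit had an unadjusted p under 0.05 (22.6% to 25.5% of the genes tested), and the median lay between 0.58 and 0.67. Calls over all genes also fell in these fits, to 3.86% higher and 1.49% lower without CTL replicate 1, and to 3.29% and 1.36% without CTL replicate 2. They were 3.86% and 1.97% without Nelfb-/- replicate 2 and 1.79% and 0.839% without Nelfb-/- replicate 3. The direction of the median was the same in all 6 fits.

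**Figure D2:**
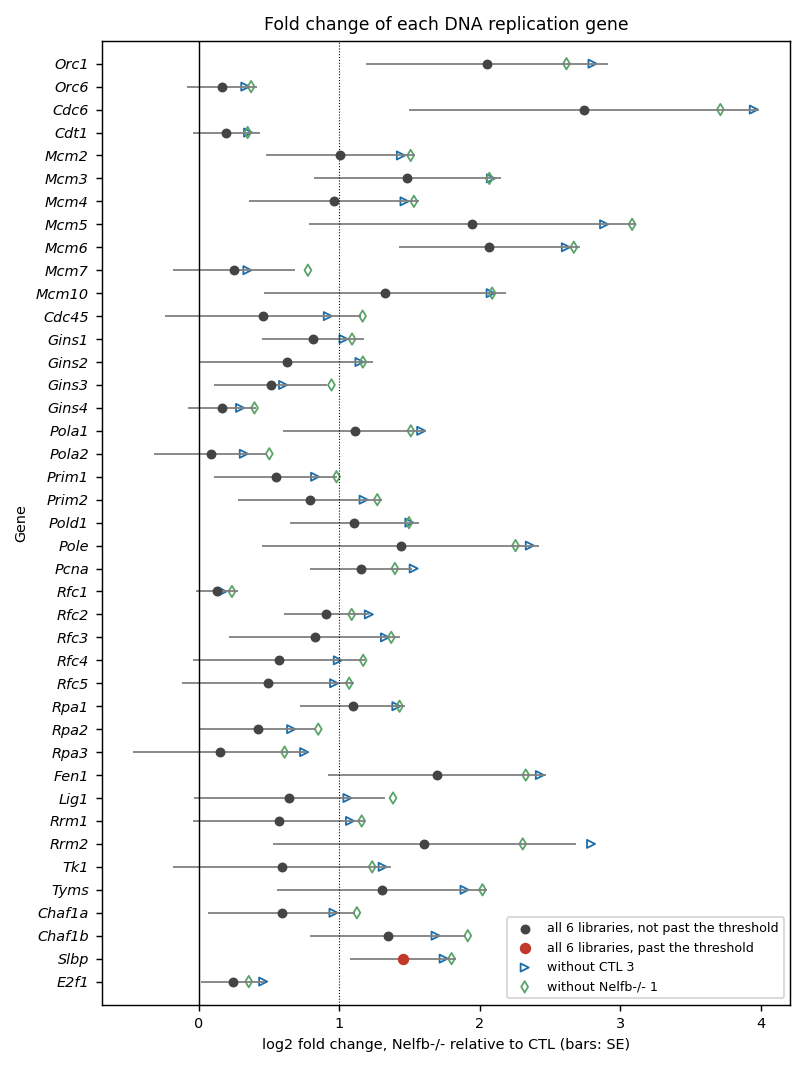
Log2 fold change of each replication gene in Nelfb-/- relative to CTL cells from all 6 libraries (filled points, bars show the SE), without CTL 3 (open triangles) and without Nelfb-/- 1 (open diamonds); the dotted line marks a 2-fold change. Slbp, in red, is the gene past the threshold with all 6 libraries. Both leave-outs move all 41 estimates upward, which follows from the library order of these genes. Leaving out any other library, not shown, lowered the median to between 0.58 and 0.67.

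Promoters are shown for members that differ in how far they moved, because E2F factors bind many replication gene promoters. RefSeq promoter windows (GRCm38.p6, 250 bases before to 50 after a transcript start) were found for 34 of the 41 genes, and the start lay within 100 bases of the start of the gene in the deposited table for 27 of them. The E2F letters TTTCCCGC, TTTCGCGC, TTTGCCGC and TTTGGCGC were searched on both strands, counting overlapping matches. They were present in a window of 12 of the 34 genes (35.3%). The share was 4.50% of the 11212 genes tested that have a window and 2.60% of all 27025 genes with a window. Capitals mark the matches. Cdc6 is shown as the gene with the largest fold change (chr11:98907901-98908200, + strand), Mcm5 as that with the widest gap between libraries (chr8:75109259-75109558, + strand) and Mcm6 as that with the most matches (chr1:128359656-128359955, - strand). Slbp is shown as the called gene (chr5:33652525-33652824, - strand), and Rrm2 (chr12:24708004-24708303, + strand) and Rfc1 (chr5:65335590-65335889, - strand) as genes with a large and with the smallest range between libraries. E2f1 (chr2:154569377-154569676, - strand) is shown as the E2F gene of the set. The start used for Cdc6 lies 350 bases and that for E2f1 466 bases inside the gene as the table gives it, so that these windows may miss the sequence before the first exon.
Cdc6: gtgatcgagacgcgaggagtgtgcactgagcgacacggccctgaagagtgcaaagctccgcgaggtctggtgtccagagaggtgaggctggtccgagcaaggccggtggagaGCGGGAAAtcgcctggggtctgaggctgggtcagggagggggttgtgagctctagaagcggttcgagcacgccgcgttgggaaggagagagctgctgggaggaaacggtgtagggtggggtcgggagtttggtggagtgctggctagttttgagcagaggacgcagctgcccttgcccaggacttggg
Mcm5: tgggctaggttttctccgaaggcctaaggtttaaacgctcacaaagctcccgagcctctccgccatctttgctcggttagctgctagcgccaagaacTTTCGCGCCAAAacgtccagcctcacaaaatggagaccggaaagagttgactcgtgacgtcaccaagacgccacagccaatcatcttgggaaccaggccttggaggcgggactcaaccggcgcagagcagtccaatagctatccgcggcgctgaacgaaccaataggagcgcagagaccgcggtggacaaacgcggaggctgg
Mcm6: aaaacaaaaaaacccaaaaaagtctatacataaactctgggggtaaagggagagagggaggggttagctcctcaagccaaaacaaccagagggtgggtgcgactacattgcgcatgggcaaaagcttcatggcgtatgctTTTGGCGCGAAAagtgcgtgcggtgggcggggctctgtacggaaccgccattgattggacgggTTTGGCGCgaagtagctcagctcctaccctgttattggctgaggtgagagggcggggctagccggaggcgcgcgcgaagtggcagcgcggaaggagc
Slbp: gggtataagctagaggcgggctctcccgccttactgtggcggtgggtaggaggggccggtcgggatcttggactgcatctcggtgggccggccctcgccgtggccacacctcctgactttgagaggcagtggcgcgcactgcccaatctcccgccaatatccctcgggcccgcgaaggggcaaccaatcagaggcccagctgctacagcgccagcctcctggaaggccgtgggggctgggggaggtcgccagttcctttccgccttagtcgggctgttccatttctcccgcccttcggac
Rrm2: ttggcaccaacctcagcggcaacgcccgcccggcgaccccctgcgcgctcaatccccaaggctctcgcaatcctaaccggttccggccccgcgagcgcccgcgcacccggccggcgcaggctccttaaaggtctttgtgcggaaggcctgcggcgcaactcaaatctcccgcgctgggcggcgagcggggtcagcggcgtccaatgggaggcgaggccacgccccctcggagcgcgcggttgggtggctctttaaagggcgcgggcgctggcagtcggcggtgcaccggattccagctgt
Rfc1: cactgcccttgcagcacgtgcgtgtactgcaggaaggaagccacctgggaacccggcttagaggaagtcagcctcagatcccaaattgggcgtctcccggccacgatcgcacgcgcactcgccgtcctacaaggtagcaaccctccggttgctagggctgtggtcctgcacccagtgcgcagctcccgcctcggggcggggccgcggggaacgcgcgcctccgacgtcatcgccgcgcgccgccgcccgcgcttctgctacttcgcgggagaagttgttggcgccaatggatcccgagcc
E2f1: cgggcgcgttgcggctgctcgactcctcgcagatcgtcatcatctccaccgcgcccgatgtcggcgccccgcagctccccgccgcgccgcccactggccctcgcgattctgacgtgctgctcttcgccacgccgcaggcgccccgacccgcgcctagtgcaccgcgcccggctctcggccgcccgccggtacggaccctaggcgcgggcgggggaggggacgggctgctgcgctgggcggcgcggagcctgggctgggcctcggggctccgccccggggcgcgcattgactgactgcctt

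The window of Mcm6 had 3 matches and those of Mcm3, Mcm5, Mcm7 and Rfc3 had 2 each. One match was found for Orc1, Cdc6, Cdt1, Gins3, Pola1, Pold1 and Lig1. Genes with a match therefore include Cdc6, Orc1 and Mcm5, which varied most between libraries, and Cdt1, which varied little. The log2 range over the 6 libraries had a median of 2.27 for the 12 genes with a match and 1.91 for the 22 without. Slbp, Rrm2, Rfc1 and E2f1 had none of these letters in the windows shown, which says nothing of E2F binding elsewhere. The CCAAT box, also searched on both strands, was in a window of 64.7% of the 34 genes and of 43.0% of the genes tested that have a window. TTTGAA, the cell cycle homology region (CHR) of mitotic genes, was in a window of 11.8% of the 34 genes and of 14.6% of the genes tested that have a window. Of 25 genes of G2 and mitosis with a window, by comparison, 68.0% had TTTGAA, 76.0% had CCAAT and 1 of the 25 had the E2F letters. Of 41 other replication genes with a window 31.7% had the E2F letters, close to the share of the members.

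Slbp encodes the stem-loop binding protein, which processes replication-dependent histone mRNA and is made in S phase. Slbp (ENSMUSG00000004642, chromosome 5 from 33634952 to 33652574) gave 15.4, 16.9 and 29.4 CPM in the CTL libraries, in replicate order, against 33.5, 75.2 and 62.7 CPM in the Nelfb-/- libraries. The groups did not overlap, although CTL replicate 3 lay close to Nelfb-/- replicate 1. The means of 20.6 ± 7.71 CPM (CTL) and 57.1 ± 21.4 CPM (Nelfb-/-; SD, n = 3) differed by 1.45 on the log2 scale (SE 0.37, limma, adjusted p = 0.046). With each library left out in turn it lay between 1.21 and 1.80, and the gene was called in 2 of these 6 fits (limma, adjusted p between 0.021 and 0.16). Its call was also lost with another scaling of the libraries (log2 fold change 1.38, limma, adjusted p = 0.051). Chaf1b, a subunit of the chromatin assembly factor that deposits histones behind the fork, had 2.75, 2.29 and 5.10 CPM in the CTL libraries against 3.70, 14.0 and 10.5 CPM in the Nelfb-/- libraries (log2 fold change 1.35, limma, adjusted p = 0.15). Chaf1a, the large subunit of the same factor, was lower in Nelfb-/- replicate 1 (8.49 CPM) than in any CTL library and changed by 0.59 on the log2 scale (limma, adjusted p = 0.48). Chaf1a overlaps Ubxn6 on the other strand. In all, 13 of the 41 genes overlap another listed gene, among them Rfc4 (Eif4a2, mean 307 CPM), Rfc5 (Wsb2), Cdc45 (Ufd1), Gins2 (Galnt2l and Gse1), Fen1 (Tmem258), Lig1 (Zswim9), Rfc2 (Lat2), Tk1 (Afmid) and Orc1 (Gm12743), and whether reads were counted by strand was not given in the sources used here.

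**Figure D3:**
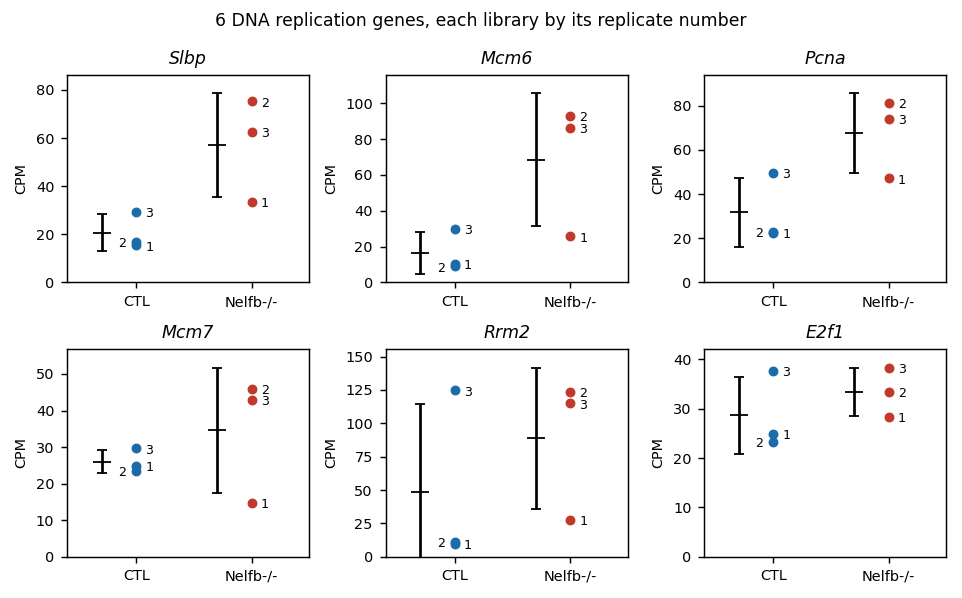
CPM of 6 replication genes in CTL (blue) and Nelfb-/- cells (red), with each point numbered by its replicate and the black bar giving the mean and SD (n = 3; the lower end of the Rrm2 CTL bar is cut at 0). Slbp is the gene without overlap between the groups, Mcm7 is lowest in Nelfb-/- 1, and Rrm2 in CTL 3 is as high as in Nelfb-/- 2 and 3.

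The licensing genes divided into Orc1 and Cdc6, which varied widely, and Orc6 and Cdt1, which varied little. Orc1, the ATP-binding subunit of the origin recognition complex, had 0.180, 0.621 and 1.80 CPM in the CTL libraries against 1.19, 4.37 and 3.57 CPM in the Nelfb-/- libraries (log2 fold change 2.05, SE 0.86, limma, adjusted p = 0.16). Cdc6 (ENSMUSG00000017499, chromosome 11 from 98907801 to 98923940), which loads the helicase together with Cdt1, gave 0.361, 0.187 and 3.74 CPM in the CTL libraries against 1.19, 9.20 and 9.26 CPM in the Nelfb-/- libraries. The highest and lowest libraries differed 49.6-fold, the widest span among the 41 genes. CTL replicates 1 and 2 held few reads on Cdc6, near the floor of 3 reads, and CTL replicate 3 exceeded Nelfb-/- replicate 1. The fitted change of 2.74 (SE 1.25, log2 scale, limma, adjusted p = 0.18) did not pass, rising to 3.95 with CTL replicate 3 left out (limma, adjusted p = 0.043). No other leave-out called Cdc6, with values down to 1.93 (limma, adjusted p up to 0.43). Orc6 lay between 13.5 and 19.4 CPM in CTL and between 12.9 and 21.2 CPM in Nelfb-/- cells (log2 fold change 0.16). Cdt1, the partner of Cdc6 in helicase loading, lay between 7.62 and 11.6 CPM and between 8.72 and 12.9 CPM (log2 fold change 0.20). Both overlap a gene with more reads, Vps35 for Orc6 and Galnt2l for Cdt1.

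The 6 subunits of MCM2-7 form a ring in which each is present once. Their fitted RNA fold changes ranged from 0.25 to 2.07 on the log2 scale, with a median of 1.25, and differences between subunits were not tested. Mcm6 (ENSMUSG00000026355, chromosome 1 from 128331590 to 128359664) gave 10.4, 8.96 and 30.0 CPM in the CTL libraries against 25.7, 93.1 and 86.4 CPM in the Nelfb-/- libraries. Its log2 fold change of 2.07 did not pass (SE 0.64, limma, adjusted p = 0.077). With CTL replicate 3 left out it passed with 2.61 (limma, adjusted p = 0.033), and without Nelfb-/- replicate 1 with 2.67 (limma, adjusted p = 0.029). No other leave-out called it, with values down to 1.74 (limma, adjusted p up to 0.23). Per kilobase of merged exons, Mcm6 was at 3.52 CPM for CTL and 14.7 CPM for Nelfb-/- cells, the highest of the 6 subunits in Nelfb-/- cells and the third in CTL. Mcm5 had 2.71, 2.15 and 17.2 CPM in the CTL libraries against 3.70, 42.1 and 37.6 CPM in the Nelfb-/- libraries, where CTL replicate 3 exceeded Nelfb-/- replicate 1 4.65-fold (log2 fold change 1.95, SE 1.16, limma, adjusted p = 0.30). The log2 fold change was 1.48 for Mcm3, 1.01 for Mcm2 and 0.96 for Mcm4 (limma, adjusted p between 0.18 and 0.32). Mcm7 was the exception in the ring, with 24.9, 23.6 and 29.6 CPM in the CTL libraries against 14.8, 45.9 and 42.9 CPM in the Nelfb-/- libraries. Nelfb-/- replicate 1 was thus its lowest library, and the fitted change of 0.25 (SE 0.43, log2 scale, limma, adjusted p = 0.73) lay between -0.040 and 0.78 with single libraries left out. The value of 0.78 came without Nelfb-/- replicate 1 and missed the call by the fold limit (limma, adjusted p = 0.026). Per kilobase Mcm7 was the highest subunit in CTL (5.88 CPM), and it overlaps Cops6 and Ap4m1, both on the other strand.

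Factors that activate the helicase had smaller values, with a median log2 fold change of 0.57 over 6 genes. Mcm10, which helps the helicase open DNA, had 1.13, 1.17 and 5.61 CPM in the CTL libraries against 1.71, 9.49 and 7.55 CPM in the Nelfb-/- libraries (log2 fold change 1.33, limma, adjusted p = 0.33). Cdc45 had 2.66, 3.31 and 7.82 CPM in the CTL libraries against 2.09, 11.1 and 7.75 CPM in the Nelfb-/- libraries (log2 fold change 0.46, limma, adjusted p = 0.69), and CTL replicate 3 was level with Nelfb-/- replicate 3. The 4 subunits of the GINS complex gave log2 fold changes of 0.81 (Gins1), 0.62 (Gins2), 0.51 (Gins3) and 0.17 (Gins4). Gins4 stood out in level rather than in change, with 13.5 CPM per kilobase in CTL and 15.4 in Nelfb-/- cells, while the other 3 had between 1.01 and 2.69 in CTL. Between its libraries Gins4 varied by 1.64-fold and Gins2 by 3.95-fold.

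Among the polymerases, the catalytic subunits of alpha, delta and epsilon had higher fitted fold changes than Pola2 and the primase subunits, a difference that was not tested. Pola1, the catalytic subunit of polymerase alpha, had 6.76, 5.46 and 16.4 CPM in the CTL libraries against 10.5, 23.3 and 25.0 CPM in the Nelfb-/- libraries (log2 fold change 1.11, limma, adjusted p = 0.19). Pola2, the accessory subunit of the same enzyme, had 7.85, 7.79 and 12.8 CPM in the CTL libraries against 5.45, 12.8 and 13.3 CPM in the Nelfb-/- libraries, the smallest change of all 41 genes (log2 fold change 0.08, SE 0.40, limma, adjusted p = 0.91). The order of Nelfb-/- replicate 1 and the lower CTL libraries is thus inverse in these partners. The primase subunits Prim1 and Prim2, which make the RNA primers, had log2 fold changes of 0.55 and 0.79. Pold1, the catalytic subunit of polymerase delta on the lagging strand, was at 6.76, 5.69 and 14.1 CPM in the CTL libraries against 10.2, 24.6 and 21.6 CPM in the Nelfb-/- libraries (log2 fold change 1.11, limma, adjusted p = 0.15). Pole, the catalytic subunit of polymerase epsilon on the leading strand, was at 2.16, 1.54 and 12.6 CPM in the CTL libraries against 3.03, 18.9 and 15.0 CPM in the Nelfb-/- libraries (log2 fold change 1.44, limma, adjusted p = 0.36). Pole and Mcm5 were the genes with the widest gaps between the upper and lower libraries, 4.16-fold and 4.65-fold.

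Pcna, the clamp that holds the polymerases on DNA, had 22.6, 23.0 and 49.5 CPM in the CTL libraries against 47.2, 81.5 and 74.1 CPM in the Nelfb-/- libraries. CTL replicate 3 and Nelfb-/- replicate 1 were nearly level, and the log2 fold change of 1.16 did not pass (SE 0.36, limma, adjusted p = 0.079) but was called without CTL replicate 3 (1.53, limma, adjusted p = 0.016). No other leave-out called Pcna, with values down to 0.96 (limma, adjusted p up to 0.23). A copy, Pcna-ps2, is listed separately with a mean of 21.7 CPM and a log2 fold change of 1.06, and how reads shared by both were assigned is uncertain. Rfc2, of the clamp loader, had a similar order, with 11.9, 11.1 and 21.6 CPM in the CTL libraries against 20.8, 30.3 and 30.1 CPM in the Nelfb-/- libraries (log2 fold change 0.91, limma, adjusted p = 0.090). Rfc3, Rfc4 and Rfc5 were less clear, with log2 fold changes of 0.82, 0.57 and 0.49 (limma, adjusted p between 0.40 and 0.62). Rfc1, the large subunit of the loader, lay between 53.7 and 62.8 CPM in CTL and between 56.2 and 71.4 CPM in Nelfb-/- cells, a span of 1.33-fold that was the smallest among the 41 genes (log2 fold change 0.13).

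Replication protein A coats single-stranded DNA as a trimer of Rpa1, Rpa2 and Rpa3. Rpa1, the large subunit, had 25.6, 25.8 and 49.2 CPM in the CTL libraries against 42.8, 89.8 and 82.2 CPM in the Nelfb-/- libraries (log2 fold change 1.09, SE 0.37, limma, adjusted p = 0.098), and it was called both without CTL replicate 3 and without Nelfb-/- replicate 1. No other leave-out called Rpa1, with values down to 0.89 (limma, adjusted p up to 0.27). Rpa2 had a log2 fold change of 0.42. Rpa3 was highest in CTL replicate 3, with 2.87, 2.77 and 9.90 CPM in the CTL libraries against 2.50, 6.97 and 6.19 CPM in the Nelfb-/- libraries (log2 fold change 0.15, SE 0.62, limma, adjusted p = 0.89). Both Nelfb-/- replicates 2 and 3 were thus below CTL replicate 3, unlike for most of the set. Fen1, the nuclease that trims Okazaki flaps, had 3.09, 2.56 and 13.1 CPM in the CTL libraries against 6.34, 24.3 and 23.4 CPM in the Nelfb-/- libraries (log2 fold change 1.69, limma, adjusted p = 0.19), and Lig1, the ligase that seals the fragments, reached 0.64 on the log2 scale (limma, adjusted p = 0.55). Lig1 was lowest in Nelfb-/- replicate 1 (5.31 CPM).

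The genes for deoxynucleotide supply set CTL replicate 3 most clearly beside Nelfb-/- replicates 2 and 3. Rrm2, the small subunit of ribonucleotide reductase that is made in S phase, had 9.92, 11.2 and 125 CPM in the CTL libraries against 27.8, 123 and 115 CPM in the Nelfb-/- libraries. Its upper libraries spanned 115 to 125 CPM without regard to genotype, while Nelfb-/- replicate 1 exceeded CTL replicates 1 and 2 (log2 fold change 1.60, SE 1.08, limma, adjusted p = 0.35). Rrm1, the large subunit, had 34.0, 33.9 and 96.8 CPM in the CTL libraries against 31.7, 110.4 and 105 CPM in the Nelfb-/- libraries (log2 fold change 0.57, limma, adjusted p = 0.56). Thymidine kinase Tk1 had 3.61, 4.15 and 17.3 CPM in the CTL libraries against 3.94, 17.1 and 13.3 CPM in the Nelfb-/- libraries (log2 fold change 0.59, limma, adjusted p = 0.64). Tyms, which makes thymidylate, differed from these, since both upper Nelfb-/- libraries (16.3 and 15.8 CPM) exceeded CTL replicate 3 (8.94 CPM), a change of 1.30 on the log2 scale (limma, adjusted p = 0.28).

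E2f1, an activator of many genes of the set, varied little, with 24.9, 23.3 and 37.6 CPM in the CTL libraries against 28.4, 33.5 and 38.2 CPM in the Nelfb-/- libraries (log2 fold change 0.24, SE 0.23, limma, adjusted p = 0.50). The 14 other genes tested of the E2F and RB families had a median log2 fold change of 0.19. Of these 0 were called, where 7.58% of all genes tested were called higher and 3.64% lower (limma). At an unadjusted p under 0.05, 2 were higher (19.6% of all genes tested) and 1 lower (12.9%). Among them E2f2 had 0.451, 0.140 and 2.35 CPM in the CTL libraries against 1.99, 4.77 and 5.26 CPM in the Nelfb-/- libraries (log2 fold change 2.63, limma, adjusted p = 0.11). The atypical repressors E2f7 and E2f8 were high in the same 3 libraries as the replication genes (log2 fold changes 1.45 and 1.39), whereas E2f3, E2f4 and E2f5 were within 0.28 of 0 on the log2 scale.

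A further list held 51 other genes of replication and the fork, of which 3 were called higher (7.58% of all genes tested) and 1 lower (3.64%), shares no larger than those over all genes. Those called higher were Cdc7, the kinase that fires origins (log2 fold change 1.20, limma, adjusted p = 0.033), the maintenance DNA methyltransferase Dnmt1 (1.52, limma, adjusted p = 0.034) and the histone chaperone Nasp (1.12, limma, adjusted p = 0.024). Each of these 3 was called in 2 of the 6 fits with a library left out. In Dnmt1 the CTL libraries had 19.6, 15.7 and 33.6 CPM and the Nelfb-/- libraries 42.5, 79.6 and 72.1 CPM, an order without overlap as for Slbp. Pole4, a small subunit of polymerase epsilon, was called lower with 98.4, 117 and 63.8 CPM in the CTL libraries against 47.3, 46.2 and 40.4 CPM in the Nelfb-/- libraries (-1.02, limma, adjusted p = 0.034), opposite in direction to Pole. Pole4 was called in 1 of the 6 fits with a library left out. The median of the list was 0.49, and 27 of the 51 had the 3 upper libraries in common with the replication genes (18.0% of all genes tested).

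The split between libraries was wider for genes of G2 and mitosis. Mki67, a marker of cycling cells, had 29.4, 26.3 and 140.0 CPM in the CTL libraries against 39.6, 162 and 139 CPM in the Nelfb-/- libraries (log2 fold change 1.01, limma, adjusted p = 0.42). Top2a, Ccna2, Ccnb1 and Cdk1 gave log2 fold changes of 0.73, 1.09, 0.59 and 0.22 (limma, adjusted p between 0.51 and 0.87). Of the 30 genes 0 were called, where 7.58% of all genes tested were called higher and 3.64% lower (limma). At an unadjusted p under 0.05, 0 were higher (19.6% of all genes tested) and 0 lower (12.9%). All 30 had CTL replicate 3 and Nelfb-/- replicates 2 and 3 above the others (18.0%). Their geometric mean was 4.29, 4.79 and 25.0 CPM in the CTL libraries against 4.97, 26.7 and 23.3 CPM in the Nelfb-/- libraries. The 41 replication genes had geometric means of 5.80, 5.60 and 14.9 CPM in the CTL libraries against 7.35, 22.0 and 20.3 CPM in the Nelfb-/- libraries. Nelfb-/- replicates 2 and 3 were both above CTL replicate 3 for 9 of the 30 (46.6% of all genes tested) and both below it for 10 (40.9%), against 33 and 3 of the 41 replication genes. This difference was not tested, and all these counts rest on the same single CTL library.

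**Figure D4:**
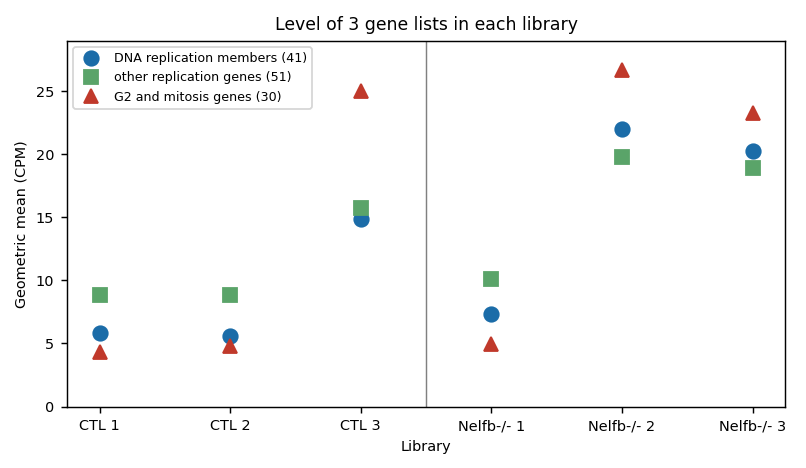
Geometric mean of CPM in each library for the 41 replication genes (circles), 51 other replication genes (squares) and 30 genes of G2 and mitosis (triangles). All 3 lists are higher in CTL 3 and Nelfb-/- 2 and 3, and the triangles in these libraries lie between 23.3 and 26.7 CPM whatever the genotype, while the circles are at 14.9 in CTL 3 and above 20 in Nelfb-/- 2 and 3.

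Of the cell type markers, those of fibroblasts followed the library split of the replication genes for the most part. The lists of adipocyte, macrophage, melanocyte, skeletal muscle and endothelial markers held 0 genes with that order. The inverse order was found for 3 of the 10 adipocyte markers, Cfd, Pnpla2 and Lpl (15.8% of all genes tested). The summed level of 10 fibroblast markers was 5048, 4371 and 16845 CPM in the CTL libraries against 8255, 30399 and 33026 CPM in the Nelfb-/- libraries, and 6 of the 9 that were tested had the same 3 upper libraries as the replication genes. The sum is mostly Col1a1, Col1a2 and Col3a1. The exceptions were Pdgfra, the gene whose promoter drives Cre, and Dcn and Dpp4, which were both lowest in CTL replicate 3 (309.9 and 0.340 CPM), and Dpp4 was the 1 fibroblast marker called higher (2.20 on the log2 scale, limma, adjusted p = 0.021). The number of fibroblast markers called was 5 without CTL replicate 3 (10.4% of the genes tested in that fit) and 2 without Nelfb-/- replicate 1 (7.74%). With any other library left out it was 0 or 1. No marker of that list was at 0 in any library, although Pi16 was below the level tested; its values had the same order. Summed over 10 markers, macrophage levels were 736, 395 and 209 CPM in the CTL libraries against 6735, 2006 and 3385 CPM in the Nelfb-/- libraries, highest in Nelfb-/- replicate 1, and 9 of these 10 markers were called higher (7.58% of all genes tested). That count was 2 without CTL replicate 2 and 2 without Nelfb-/- replicate 3, with medians of 2.92 and 3.01 on the log2 scale, and 1 when genes were tested without moderation. The summed adipocyte markers were highest in CTL replicates 1 and 2 (41559 and 38413 CPM) and between 17711 and 25922 CPM in the other libraries, a sum to which Fabp4 and Lpl gave the most. Their geometric means set the libraries in another order, with 984, 1079 and 635 CPM in the CTL libraries against 669, 979 and 864 CPM in the Nelfb-/- libraries. Of these 10 markers, 3 had a fitted change above 0, and the median was -0.65 on the log2 scale. None was called lower (limma, 3 at an unadjusted p under 0.05), with fitted values of -2.03 for Cfd, -1.07 for Adipoq, -1.04 for Fabp4 and -1.02 for Plin1, and every Nelfb-/- library was below every CTL library for Fabp4 and Plin1. Without CTL replicate 3, Adipoq, Cfd and Pnpla2 were called lower (4.75% of the genes tested in that fit), and no other leave-out called any adipocyte marker lower. Lep was called higher (5.26 on the log2 scale, limma, adjusted p = 0.014), and Plin4 was above every CTL library in each Nelfb-/- library without passing (0.76, limma, adjusted p = 0.085). Sums of melanocyte markers (1.22 to 1.43 CPM in CTL, 30.3 to 72.1 CPM in Nelfb-/- cells) and of skeletal muscle markers (6.70 to 7.53 CPM, 39.6 to 89.5 CPM) were also higher in every Nelfb-/- library. Endothelial markers summed to between 10.7 and 15.3 CPM in CTL and between 17.1 and 26.6 CPM in Nelfb-/- cells, and keratinocyte markers to between 2.75 and 3.17 CPM and between 6.69 and 14.6 CPM. These sums too were higher in every Nelfb-/- library. All 4 keratinocyte markers tested had fitted changes above 0, while the endothelial markers went both ways. Emcn (endothelial), Krt14 (keratinocyte) and Sox10 (Schwann) were called higher and the Schwann marker Mbp lower (-1.23, limma, adjusted p = 0.038), and the endothelial markers Kdr and Tek had fitted values of -0.37 and -0.53 with the library order inverse to that of the replication genes. The part of these cell types in the levels of the replication genes was not tested.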

How the data were processed

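RNA-seq of 3 CTL and 3 Nelfb-/- libraries was analysed from a table of 17924 genes. The authors aligned reads to mm10, and the labels' processing notes name STAR 2.7 and Partek 9.0.20.0202 without their roles; the counting and its use of strand were not given in the sources used here. The deposited values are in CPM, since each column sums to 1e+06 once an offset of 0.0001 is subtracted. The smallest steps gave the depth of each library, 17.2 M to 29.4 M reads. Values of at most 20 reads fell on whole multiples of this step (tolerance 0.02) in 69.9% to 72.4% of cases, so no count-based test was run. Positions are those of the table, with the end given as the last base, and equal GENCODE vM21 (GRCm38).

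CPM was multiplied by the common depth (22.3 M), and log2(value + 1) was tested with limma 3.58.1 (R 4.3.3) with an abundance trend for genes with a mean of at least 10 (0.448 CPM), 16252 in all. On this scale fold changes of low genes are understated. Floors in reads cover counting error only. An exact permutation test of 3 against 3 libraries cannot give a p below 0.1. The replicates are called biological, and p-values measure the spread between these 6 libraries. The test was checked on simulated data. Alternatives were other pseudocounts, filters, scaling and variance models, a replicate block and the omission of each library.

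The members and lists were chosen with earlier results of these data known. Genes named are all 41 members, Nelfb, fixed E2F and mitotic genes, called genes of the further lists and markers; printing the Slbp and Mcm6 promoters and naming Pcna-ps2 was decided after their values were seen. Motifs were searched in RefSeq promoters. The libraries of the study's other assays were not analysed here, and the summed Schwann cell markers are not reported here.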

Additional observations from a re-analysis of the deposited data

How the results depend on the processing

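Over all genes, 1824 were called, 684 when genes were tested one by one without moderation, and between 426 and 2480 with single libraries left out. The 1 replication gene called became 0 with median-of-ratios scaling, 0 without the abundance trend and 0 without moderation, and between 0 and 9 with single libraries left out. By adjusted p alone, the count of 1 likewise became 0 in those fits and between 0 and 9 with single libraries left out. The call of Slbp was the one lost, and the other pseudocounts, filters and the robust variance kept it. Of the other replication genes, 4 were called, 0 without moderation and between 0 and 6 with single libraries left out. No gene of G2 and mitosis was called under any of these alternatives (limma). The median log2 fold change of the 41 genes stayed between 0.58 and 1.27 with single libraries left out. Signs turned only there, for Mcm7 (-0.040 to 0.78), Cdc45 (-0.026 to 1.16), Pola2 (-0.14 to 0.50) and Rpa3 (-0.16 to 0.75), none of them called.

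Replicate numbers did not pair the libraries: the deviations of same-numbered libraries correlated at 0.52, -0.39 and 0.52, and not every library correlated best with its own number. With the replicate block, 5 replication genes were called (Orc1, Mcm6, Pcna, Rpa1 and Slbp), as they were by adjusted p alone; 9.26% of all genes were called higher in that fit.

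With 3 libraries in each group and the spread seen here, changes under the 2-fold limit in genes such as Orc6 or E2f1 could not be told from 0. Cdc6 and Orc1 had few reads in CTL replicates 1 and 2 and changed with the pseudocount, between 2.35 and 2.81 on the log2 scale for Cdc6 and between 1.72 and 2.11 for Orc1.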
